A study of Bos taurus with 33 samples.

Results

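The genes described here are 8 bovine sugar transporters of the SLC2A family, SLC2A1, SLC2A3, SLC2A4, SLC2A6, SLC2A8, SLC2A10, SLC2A12 and SLC2A13. They were taken by symbol from the expression tables of oocytes and cumulus cells (CC) and joined by Ensembl identifier, so 8 of the 17543 genes listed in either table belong to the set. The CC table held all 8 and the oocyte table held 7, since SLC2A12 was not among its genes. SLC2A3 carried no symbol in the CC table and was found there by its identifier, ENSBTAG00000004556.

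SLC2A proteins move glucose and related sugars down their concentration gradients across membranes, and they differ in affinity, in tissue and in whether they sit at the cell surface or on internal membranes. Cumulus cells surround the oocyte and are coupled to it by gap junctions. The oocyte itself uses glucose poorly, and cumulus cells take up glucose and pass pyruvate and other products to it. By the study's account, the connections that carry substrates to the oocyte are lost at the gonadotropin surge, which preceded collection here.

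The samples were 33 pools from suckled, postpartum, adult Hereford-Angus crossbred beef cows, each pool made from 4 cumulus-oocyte complexes, with oocytes and CC sequenced separately. By the study's methods, CC pools came from the same complexes as oocyte pools. All cows were given GnRH and later prostaglandin F2 alpha to synchronise follicle growth. Cows without estrus were given GnRH again to induce the gonadotropin surge, and their follicles were classified as small (at most 11.7 mm, 6 oocyte and 6 CC pools) or large (at least 12.7 mm, 6 and 6 pools). Cows in estrus had an endogenous surge and no further GnRH, and their follicles, of 11.7 to 14.0 mm, were classified as spontaneous (4 oocyte and 5 CC pools). A label gives collection at about 20 hours after GnRH or estrus, and a protocol text gives a later time. A pool averages 4 complexes, so the spread between single complexes was not measured, and follicle diameter, the kind of surge and estrus cannot be told apart between the small and spontaneous pools.

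Values are CPM, reads scaled to a total of 1000000 reads on genes in each pool. Oocyte pools held 7664375 to 17934916 such reads and CC pools 1911600 to 5772431, so that 3 reads corresponded to 0.167 to 0.391 CPM in oocytes and 0.52 to 1.57 CPM in CC. Mitochondrially encoded genes took 0.846 to 5.0% of oocyte reads and 12.6 to 44.0% of CC reads, with medians of 23.5% for small, 21.4% for large and 15.6% for spontaneous CC. As a check of the labels, 12 oocyte markers summed to between 7443 and 11340 CPM in oocytes but only between 1.71 and 13.7 CPM in CC. A list of 12 cumulus and granulosa cell markers summed to between 4809 and 11217 CPM in CC, against 198 to 763 CPM in oocytes. Large CC pool 2 had the lowest median correlation with the other CC pools, at 0.871. A transcript was retained for testing if it reached 5 CPM in 4 or more of the oocyte pools, or in 5 or more for CC, which left 10076 transcripts in oocytes and 9712 in CC. SLC2A1, SLC2A3 and SLC2A8 were retained in oocytes, and SLC2A1, SLC2A3, SLC2A10 and SLC2A13 in CC. Classifications were compared in pairs with limma on log2(CPM + 1), and a transcript was called at a nominal p of at most 0.01. In oocyte comparisons with small pools it also had to pass without small pool 3. No transporter had a Benjamini-Hochberg adjusted p under 0.05 in any of the 6 comparisons, with limma, edgeR or DESeq2, so every call below is nominal.

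In CC, SLC2A1 (ENSBTAG00000009617), which encodes GLUT1, the transporter for basal glucose uptake in many cell types, was higher in pools from large and from spontaneous follicles than in pools from small follicles. The level was 88.9 CPM in the lowest small pool, 117 CPM at the median and 123 CPM in the highest. In large follicles the lowest, median and highest pools were at 150.0, 215 and 405 CPM. The 5 spontaneous pools were at 276, 143, 197, 169 and 179 CPM. The small pools lay close together and below every other CC pool, and the large and spontaneous ranges overlapped.

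From small (112.9 ± 13.1 CPM, SD, n = 6) to large (236 ± 88.1, n = 6), SLC2A1 rose by 0.99 on the log2(CPM + 1) scale (SE 0.21, 95% interval 0.56 to 1.42). Its nominal limma p of 0.000108 ranked 2 of 9712, with an adjusted p of 0.522, and the exact two-sided permutation test of mean CPM gave p = 0.00216, the smallest this design allows. SLC2A1 and SLC2A10 were the 2 of 4 retained transporters called in this comparison, where 0.813% of all tested transcripts were called and 0.69% were called as higher in large. The study had already reported both as higher in large than in small CC, from these same pools. As the members were chosen with earlier results known, the share of 2 of 4 is a description only. Pools of small and large follicles did not overlap with the large pools higher for 0.206% of tested transcripts.

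From small to spontaneous (193 ± 50.4 CPM, n = 5), SLC2A1 rose by 0.74 on the log2 scale (SE 0.18, interval 0.36 to 1.12). The limma nominal p was 0.000714, with an adjusted p of 0.262, and the exact permutation p was again the smallest possible, 0.00216. Non-overlap with the spontaneous pools higher was found for 1.1% of tested transcripts. SLC2A1 and SLC2A3 were called here, 2 of the 4 retained transporters, against 2.38% of all tested transcripts called and 2.28% called as higher in spontaneous. The median log2 fold change of all tested transcripts was 0.16 in this comparison, and SLC2A1 exceeded it by 0.58. The small pools were the same in both comparisons, so these are not separate tests.

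Between large and spontaneous pools the SLC2A1 difference was -0.25 (interval -0.72 to 0.21, limma adjusted p = 0.817, exact permutation p = 0.424). No retained transporter was called between large and spontaneous CC, where 1.66% of tested transcripts were called. None reached an unadjusted p of 0.05 with limma, and none was called with edgeR or DESeq2.

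The SLC2A1 calls against small pools held under each of the 8 other settings tried and without each pool in turn, and the values without 1 pool were 0.82 to 1.11 for large and 0.60 to 0.84 for spontaneous. The separation of single pools depended on the scaling. With mitochondrially encoded genes left out of the total, small pools spanned 102 to 219 CPM, large pools 194 to 563 and spontaneous pools 183 to 340, so that the ranges overlapped. The median share of mitochondrially encoded reads differed between classifications as given above. The ranges overlapped, at 12.6 to 44.0% for small, 14.4 to 28.0% for large and 14.3 to 22.1% for spontaneous CC. The part of this share in the level of SLC2A1 was otherwise not tested.

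**Figure D1:**
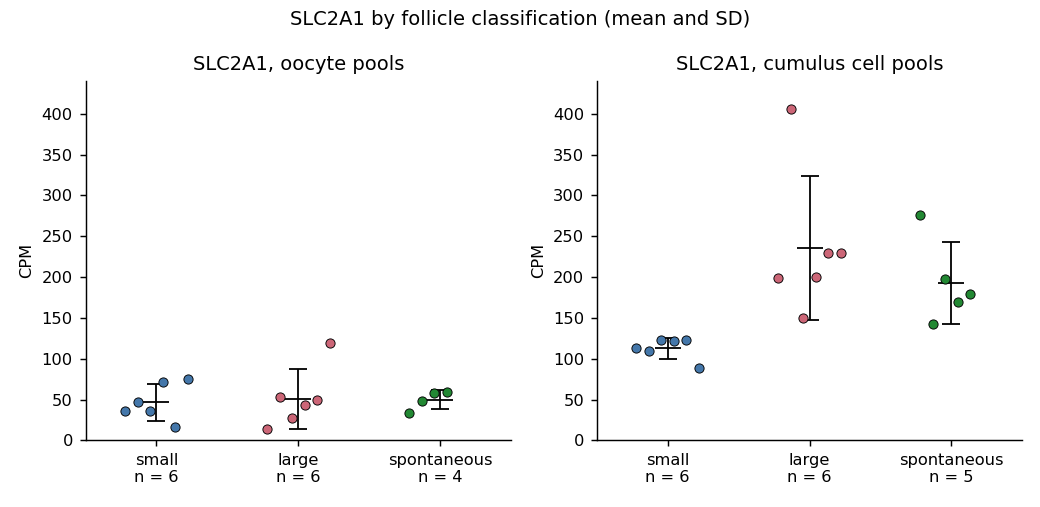
SLC2A1 in CPM in each oocyte pool (left) and CC pool (right) by follicle classification, with 1 point per pool and bars for the mean and SD, on the same vertical scale. All 6 small CC pools lie below the 11 other CC pools, and the oocyte classifications overlap.

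SLC2A3 (ENSBTAG00000004556) encodes GLUT3, a high-affinity glucose transporter best known from neurons. It varied more between CC pools than SLC2A1 did. Small pools were at 37.4 CPM at the lowest, 100.1 at the median and 236 at the highest, and large pools at 72.1, 135 and 627. The spontaneous pools were at 243, 119, 179, 243 and 325 CPM. The highest value, 627 CPM, came from large pool 2, which was also the highest pool for SLC2A1, and the ranges of the 3 classifications overlapped.

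From small (114 ± 69.6 CPM) to spontaneous (222 ± 77.5), SLC2A3 rose by 1.10 on the log2 scale (SE 0.36, interval 0.35 to 1.86). The limma nominal p was 0.00659, ranked 161 of 9712, the adjusted p was 0.395 and the exact permutation p was 0.0411, or 0.019 to 0.10 with 1 pool left out. This call was lost under 7 of the 8 other settings, among them edgeR, DESeq2 and the total without mitochondrially encoded genes, and it was lost without small pool 4, 5 or 6 or spontaneous pool 1, 4 or 5. The direction stayed the same in each of these fits, with log2 values of 0.69 to 1.36.

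From small to large (208 ± 209 CPM) the SLC2A3 difference was 0.68 (interval -0.23 to 1.59, limma adjusted p = 0.999, exact permutation p = 0.394). Without large pool 2, the mean of the large pools was 1.09 times that of the small pools (exact permutation p = 0.797). From large to spontaneous it was 0.43 (interval -0.43 to 1.28, exact permutation p = 0.942). Without large pool 2 it was 0.83 and past the threshold, with a limma p of 0.00538 and an exact permutation p of 0.0317.

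SLC2A10 (ENSBTAG00000002942) encodes GLUT10, a transporter of internal membranes linked to dehydroascorbate as well as glucose. It was a low transcript in CC. Small pools were at 4.29, 8.31, 0.523, 1.21, 4.49 and 1.21 CPM, from 1 to 27 reads each. Large pools were at 5.33, 11.7, 5.09, 8.20, 13.3 and 11.5 CPM, and spontaneous pools at 10.2, 5.07, 7.44, 1.81 and 5.73 CPM. Every large pool but only 1 of 6 small pools reached 5 CPM, so the transcript would have been retained on its large pools alone.

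From small (3.34 ± 2.96 CPM) to large (9.20 ± 3.52), SLC2A10 rose by 1.44 on the log2 scale (SE 0.47, interval 0.46 to 2.42). The limma nominal p was 0.00604, ranked 42 of 9712, the adjusted p was 0.999 and the exact permutation p was 0.013. On recovered whole reads the call was lost with edgeR and with DESeq2, both at 1.39, with p of 0.0238 and 0.0123. The study required a nominal p of at most 0.01 in its own edgeR and DESeq2 runs. By that rule it reported SLC2A10 as higher in large than in small CC. The limma call was also lost without small pool 3, 4 or 6 or large pool 2, 4, 5 or 6, and the values without 1 pool were 1.20 to 1.72. The spontaneous pools differed from the small by 0.85 (interval -0.22 to 1.93, exact permutation p = 0.160) and from the large by -0.59 (interval -1.40 to 0.23, exact permutation p = 0.149).

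SLC2A13 (ENSBTAG00000043962) encodes a proton-coupled myo-inositol transporter and is the member furthest from glucose in its substrate. Its CC level was 6.16 CPM at the lowest, 8.17 at the median and 13.7 at the highest in small pools, and 7.89, 12.4 and 19.6 CPM in large pools. Spontaneous pools were at 14.2, 14.8, 15.97, 12.5 and 14.8 CPM, the narrowest group, with a coefficient of variation of 8.71%. The difference from small to spontaneous was 0.63 (interval 0.074 to 1.19), which missed the threshold in limma (nominal p 0.0287, adjusted p = 0.539), while the exact permutation test of mean CPM gave p = 0.0108. Large pools were 0.41 above the small on this scale (exact permutation p = 0.139) and 0.22 below the spontaneous (exact permutation p = 0.539).

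**Figure D2:**
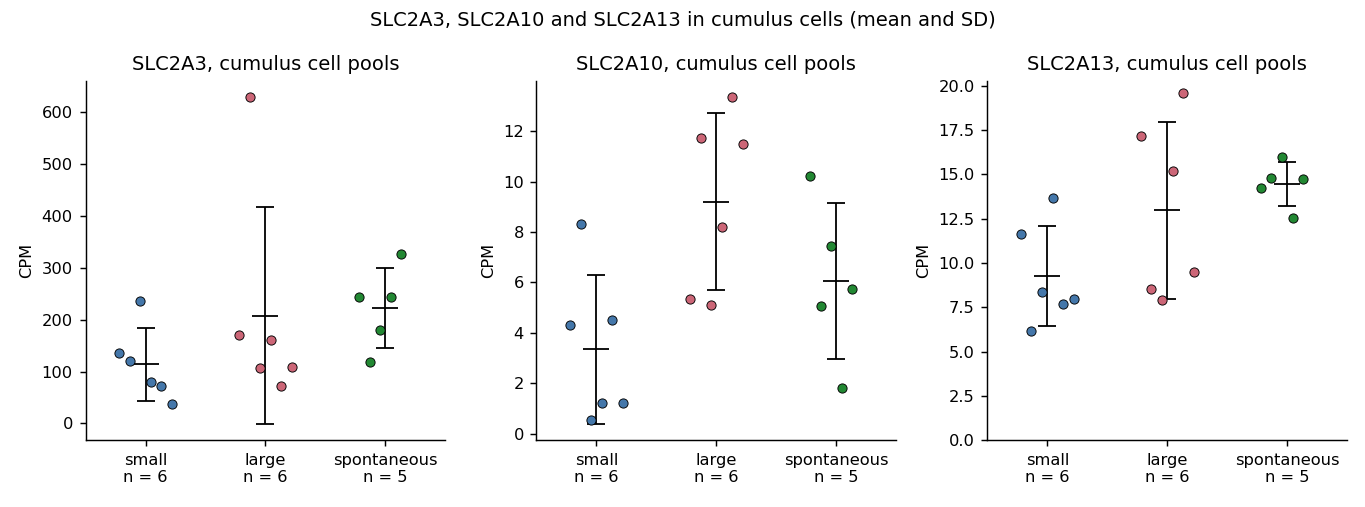
SLC2A3, SLC2A10 and SLC2A13 in CPM in each CC pool by follicle classification, with 1 point per pool and bars for the mean and SD. One large pool at 627 CPM stands above all others for SLC2A3, and 5 of 6 small pools are below 5 CPM for SLC2A10.

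The other 4 members were near the limit of counting in CC and were not retained. SLC2A6, a transporter of lysosomal membranes, had reads in all 17 pools, at 0.627 to 4.25 CPM from 3 to 15 reads. SLC2A8, which sits mainly on internal membranes, ranged from 0 to 4.90 CPM and had no read in 3 of 17 pools. SLC2A4 encodes GLUT4, the insulin-responsive transporter of muscle and fat, and SLC2A12 a related transporter of insulin-sensitive tissues. SLC2A4 had no read in 13 of 17 CC pools, including all 6 small pools, and its highest value was 2.03 CPM from 9 reads in large pool 6. SLC2A12 had no read in 14 of 17, and its highest value was 1.27 CPM from 7 reads in spontaneous pool 4. At these depths a transcript below 0.52 to 1.57 CPM could not be told from absent.

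Markers of other cell types were summed in the CC pools beside these values, since in a pool fewer cells of a type and less RNA per cell cannot be told apart. White blood cell genes, 8 of 14 retained, summed to 31.9 to 127.6 CPM in small pools, 31.4 to 197 CPM in large pools and 50.6 to 177 CPM in spontaneous pools. Theca and stroma genes, 6 of 7 retained, summed to 524 to 1626, 807 to 1464 and 1068 to 3826 CPM. The 3826 CPM came from spontaneous pool 2, and the other spontaneous pools were at 1068 to 1524 CPM. CYP17A1, on this list, was at most 0.781 CPM, so the sums rest on its other genes. Endothelial genes stayed at or below 34 CPM and red blood cell genes at or below 5.34 CPM, with none retained. Large pool 2, the highest pool for SLC2A1 and SLC2A3, had 62.3 CPM of white blood cell genes. It also had 1464 CPM of theca and stroma genes, 17.4 CPM of endothelial genes and 5.34 CPM of red blood cell genes. Its theca and stroma, endothelial and red blood cell sums were the highest of the large pools. The part of other cells in the transporter levels was not tested.

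In oocytes no member was called between any 2 classifications, and the lowest p of a retained member over all settings, edgeR and DESeq2 included, was 0.10. Of all tested transcripts, 0.655% were called in the comparison of small with large, 0.774% for small with spontaneous and 0.943% for large with spontaneous. SLC2A1 was at 16.6, 41.3 and 74.7 CPM in the lowest, median and highest small pools and 13.6, 46.3 and 119 CPM in large pools. The spontaneous pools were at 34.1, 48.5, 58.2 and 59.2 CPM, within the range of both other groups.

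Mean SLC2A1 in oocytes was 46.9 ± 22.6 CPM for the small group, 51.0 ± 36.5 CPM for the large and 49.99 ± 11.6 CPM for the spontaneous. The log2 difference was -0.0089 from small to large (interval -0.85 to 0.83, exact permutation p = 0.840). Spontaneous pools differed by 0.22 from the small (interval -0.59 to 1.03, exact permutation p = 0.805) and by 0.23 from the large (interval -0.63 to 1.09, exact permutation p = 0.971). These intervals leave room for changes of moderate size in either direction. Whether the SLC2A1 difference was unequal in CC and oocytes was not tested, because the tables were scaled separately.

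SLC2A3 in oocytes was at 2.62, 11.1 and 54.7 CPM in the lowest, median and highest small pools and at 3.12, 14.4 and 24.5 CPM in large pools. The spontaneous pools were at 8.57, 16.4, 30.8 and 16.1 CPM. The log2 difference was -0.053 from small to large (interval -1.32 to 1.21) and 0.50 from small to spontaneous (interval -0.86 to 1.85). It was 0.55 from large to spontaneous (interval -0.69 to 1.79), and the groups overlapped in each comparison. Without small pool 3, the highest pool, the value from small to large was 0.38.

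SLC2A8 was retained in oocytes but not in CC. Small pools were at 12.9, 1.63, 14.7, 3.27, 3.82 and 4.91 CPM, and large pools at 6.98, 2.20, 1.01, 4.04, 6.74 and 5.41 CPM. Spontaneous pools were at 4.65, 2.56, 32.5 and 5.35 CPM. A single spontaneous pool therefore stood above all others, and without it the difference from small to spontaneous went from 0.33 (interval -1.21 to 1.88) to -0.35.

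SLC2A10 had uneven levels. Of 6 small oocyte pools, 4 held it, at 87.5, 9.66, 3.68 and 3.27 CPM from 1184, 74, 45 and 42 reads, and the others had no read. Among large pools 5 had no read and 1 had 1 read, and the spontaneous pools had 0, 0, 3 and 2 reads. The transcript was not retained in oocytes, and the exact permutation test of mean CPM gave p = 0.0606 for small against large and p = 0.471 for small against spontaneous.

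SLC2A6 and SLC2A13 had lower means in small oocyte pools than in the other groups, and neither was retained. SLC2A6 was at 0 to 0.591 CPM in small pools (0.237 ± 0.229), from 0 to 8 reads. It was at 0.169 to 3.86 CPM in large pools (1.52 ± 1.30), and the exact permutation p was 0.0216, or 0.00433 to 0.039 with 1 pool left out. The spontaneous pools were at 0.332, 0, 1.06 and 3.85 CPM, and the exact permutation p against small pools was 0.0952. SLC2A13 had reads in 2 of 6 small pools, at 0.887 and 0.913 CPM, in 3 of 6 large pools, at 5.72, 3.56 and 5.17 CPM, and in 3 of 4 spontaneous pools, at 2.86, 2.81 and 4.13 CPM. The exact permutation p was 0.182 for small against large and 0.0333 for small against spontaneous, the latter 0.0119 to 0.0833 with 1 pool left out. SLC2A4 had no read in 14 of 16 oocyte pools and 1 read in each of the others. Over both cell types 45 such permutation tests were made, with no adjustment, of which 7 gave p of at most 0.05 and 2, both for SLC2A1 in CC, gave p of at most 0.01.

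**Figure D3:**
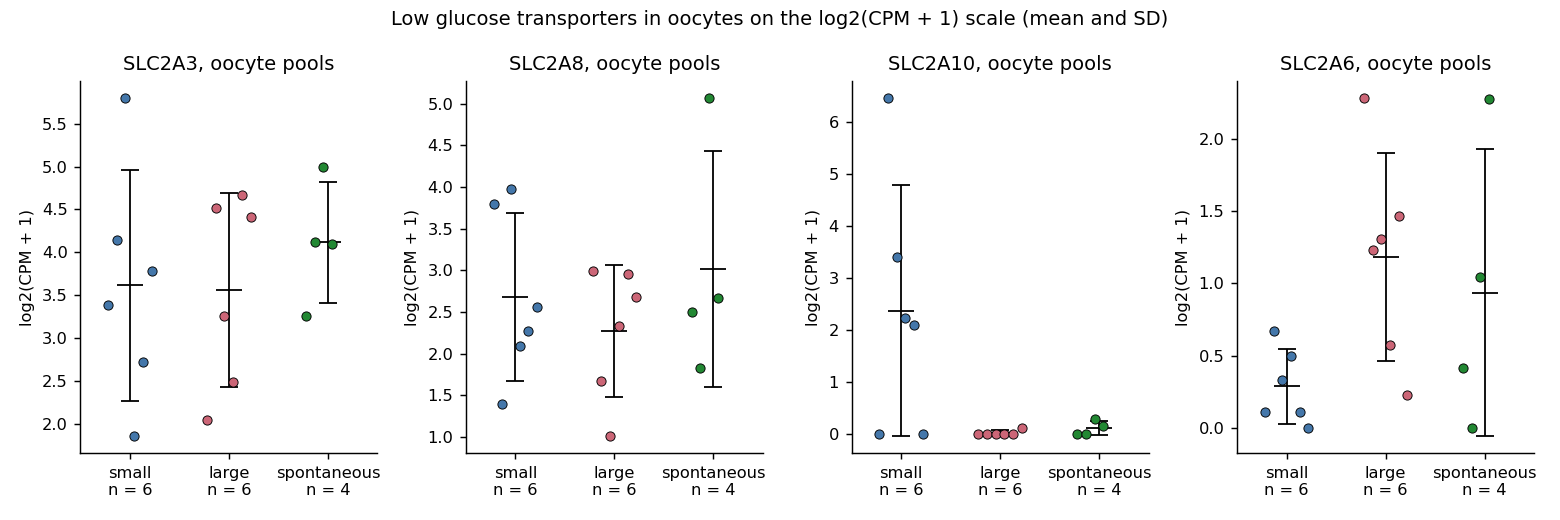
SLC2A3, SLC2A8, SLC2A10 and SLC2A6 in each oocyte pool on the log2(CPM + 1) scale by follicle classification, with 1 point per pool and bars for the mean and SD. SLC2A10 was above 3 CPM in 4 small pools and at most 0.228 CPM in every large and spontaneous pool.

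Genes listed as cumulus and granulosa cell markers had reads in the oocyte pools. Of the 12, 8 were retained in oocytes, with sums of 263 to 606 CPM in small pools, 198 to 763 CPM in large pools and 286 to 618 CPM in spontaneous pools. The hyaluronan synthase HAS2 made up 30.5 to 77.3% of these sums, and it went against its place on the list, at 193 ± 34.5 CPM in oocytes and 75.5 ± 48.2 CPM in CC. Without HAS2 the sums were 59.7 to 421 CPM in small, 66.1 to 524 CPM in large and 109 to 381 CPM in spontaneous oocytes. The FSH receptor gene FSHR had no read in 11 of 16 oocyte pools. Large pool 6 had the highest cumulus marker sum, 763 CPM, and the highest oocyte SLC2A1, 119 CPM. The next highest SLC2A1 values, 74.7 and 71.7 CPM, were in small pools 6 and 4, with sums of 264 and 263 CPM. Among large pools SLC2A3 was highest in pool 5, at 24.5 CPM, with a sum of 443 CPM. Small pool 3, with a sum of 606 CPM, had the highest SLC2A3, and spontaneous pool 3, with 618 CPM, had the highest spontaneous SLC2A3 and SLC2A8. Large pool 6, small pool 3 and spontaneous pool 3 also had the highest sums of their groups without HAS2. Small pool 2, the highest for SLC2A10, was at 157 CPM without HAS2, within the small range of 59.7 to 421 CPM. The source of these reads and their part in the transporter values were not tested.

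**Figure D4:**
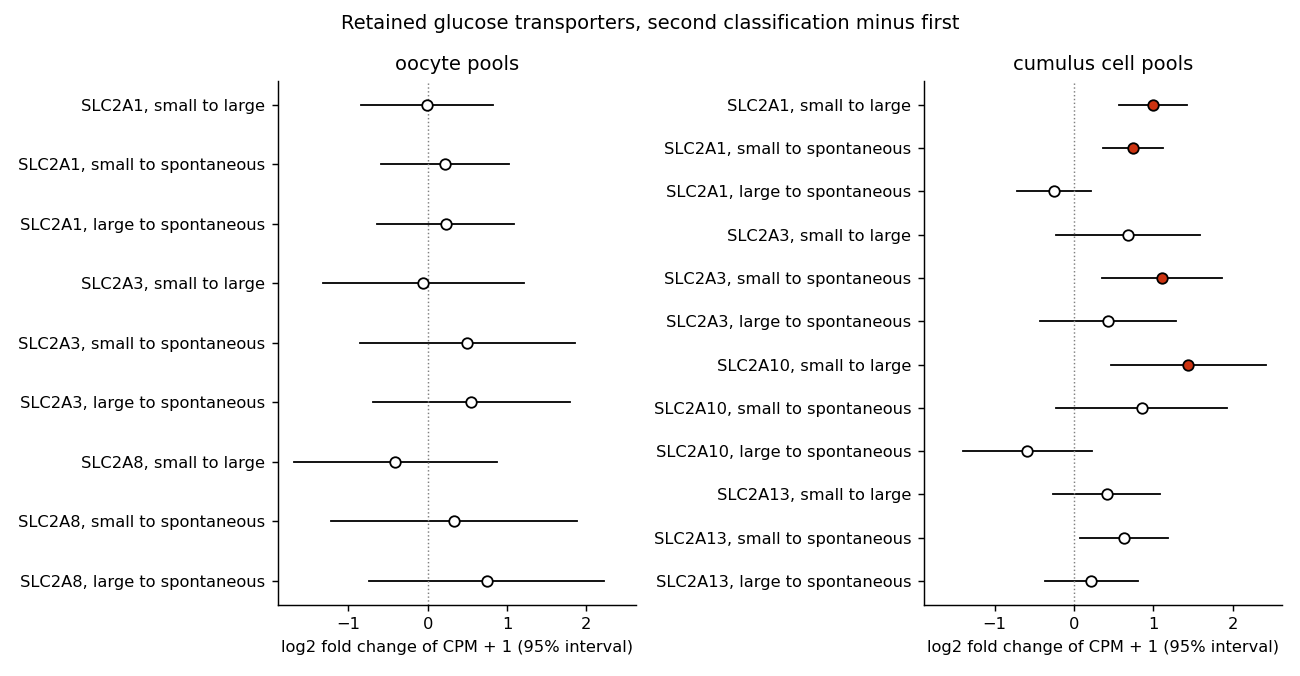
Log2 fold change of CPM + 1 with its 95% interval for each retained transporter and pair of classifications, in oocytes (left, 3 members) and CC (right, 4 members), as the second classification minus the first. Filled points passed the nominal threshold of 0.01, which 4 of the 21 did, all in CC and all higher than in small pools.

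The mean over all pools is given side by side for both cell types with no test, since the tables were scaled separately and CPM does not correct for transcript length, so that levels of different genes cannot be ranked. SLC2A1 was at 179.7 ± 77.5 CPM in CC (n = 17) and 49.2 ± 25.4 CPM in oocytes (n = 16), a ratio of 3.65. SLC2A3 had a larger ratio, 11.1, with 178.7 ± 138 CPM in CC and 16.03 ± 13.1 CPM in oocytes. SLC2A13 was at 12.1 ± 3.96 and 1.63 ± 2.07 CPM, a ratio of 7.44. For SLC2A8 the order was the other way, with 7.05 ± 7.76 CPM in oocytes and 1.61 ± 1.60 CPM in CC, 4.37 times as high in oocytes. SLC2A10 had nearly equal means, 6.21 CPM in CC and 6.54 CPM in oocytes, but the oocyte mean was carried by small pool 2.

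Other genes of sugar entry and its control were taken as 5 lists of 52 genes in all, of which 44 were in each table and 32 in oocytes and 33 in CC were tested. In CC, 1 of 33 was called as higher in large than in small (HK2), 1 of 33 as higher in spontaneous than in small (HK2), and none as lower, where 0.813% and 2.38% of all tested transcripts were called. None of the 33 was called between large and spontaneous, or reached an unadjusted p of 0.05 in limma. In oocytes none of 32 was called from small to large (1 at an unadjusted p under 0.05 in limma), 1 was called as higher in spontaneous than in small (ARNT) and 1 as lower in spontaneous than in large (SLC5A9). Over all tested oocyte transcripts these shares were 0.655%, 0.774% and 0.943%. ARNT was retained only through its spontaneous pools, so its call is given as a description.

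The median log2 fold change of the 33 list genes in CC was 0.099 from small to large, against 0.045 over all tested transcripts, and 26 of 33 were positive where 56.0% of all tested transcripts were. From small to spontaneous it was 0.26 against 0.16, with 31 of 33 positive where 71.9% of all tested transcripts were. These shares depended on the scaling. Without mitochondrially encoded genes 16 of 33 and 19 of 33 were positive, where 41.2% and 49.5% of all tested transcripts were. From large to spontaneous it was 0.15 against 0.11. In oocytes the 3 medians were 0.068, 0.11 and 0.087, against 0.046, 0.048 and 0.0078.

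The list of glucose phosphorylation and release holds the hexokinases, which trap glucose in the cell, and the glucose 6-phosphatases, which release it. Its 5 tested members were all positive in CC from small to large, with a median of 0.50, and from small to spontaneous, with a median of 0.42. With median-of-ratios scaling or without mitochondrially encoded genes, 5 of 5 and 4 of 5 were positive. Of all tested transcripts, 49.0% and 52.0% were positive with that scaling, and 41.2% and 49.5% without mitochondrially encoded genes. HK2, the inducible hexokinase, was the member called. It was at 77.9, 87.9 and 100.3 CPM in the lowest, median and highest small pools and at 72.1, 147 and 172 CPM in large pools. The spontaneous pools were at 168, 100.7, 164, 238 and 169.8 CPM, each above the highest small pool, the nearest by a small margin.

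From small (89.6 ± 8.70 CPM) to spontaneous (168 ± 48.5), HK2 rose by 0.85 on the log2 scale (SE 0.19, nominal limma p 0.000373, adjusted p = 0.191, exact permutation p = 0.00216). The call held under all 8 other settings, at 0.68 to 0.89, and without each pool. From small to large (139 ± 34.5) it rose by 0.58 (SE 0.20, nominal limma p 0.00975, adjusted p = 0.999, exact permutation p = 0.0152). This call was lost under 4 of the 8 other settings, among them the total without mitochondrially encoded genes, and in 10 of the 12 fits without 1 pool. Large pool 5, at 72.1 CPM, was below every small pool, while the other 5 large pools were above all of them. HK1, another hexokinase, was at 38.7 ± 16.7 CPM in oocytes, and HK2 over all CC pools at 129.9 ± 45.6 CPM.

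Sodium-coupled carriers take up glucose against its gradient, and their levels are given by cell type with no test. SLC5A1, which encodes SGLT1, was at 9.09 to 76.7 CPM in oocytes (36.8 ± 22.9) and had no read in 16 of 17 CC pools. SLC5A9, a carrier of mannose, fructose and glucose, was at 4.55 to 61.2 CPM in oocytes and at most 0.923 CPM in CC. SLC5A2, which encodes SGLT2, the renal carrier, was at 12.6 ± 4.33 CPM in CC and 5.01 ± 5.01 CPM in oocytes. Its ranges overlapped, at 6.90 to 20.5 CPM in CC and 0 to 18.2 CPM in oocytes.

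SLC5A9 was at 13.7, 37.3 and 56.6 CPM in the lowest, median and highest large oocyte pools and at 29.5, 8.16, 4.55 and 12.1 CPM in the spontaneous pools. Of the 4 spontaneous pools, 3 were below every large pool. From large to spontaneous SLC5A9 fell by 1.57 on the log2 scale (SE 0.50, nominal limma p 0.00419, adjusted p = 0.938, exact permutation p = 0.0286). The call was lost under 4 of the 8 other settings, edgeR among them, and without large pool 4 or 6 or spontaneous pool 2 or 3. Of the other SLC2A genes, SLC2A9, a urate carrier, was at most 0.228 CPM in oocytes and 1.46 CPM in CC. SLC2A11 was at most 2.49 and 0.764 CPM, and SLC2A2 was at most 0.307 CPM in CC.

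**Figure D5:**
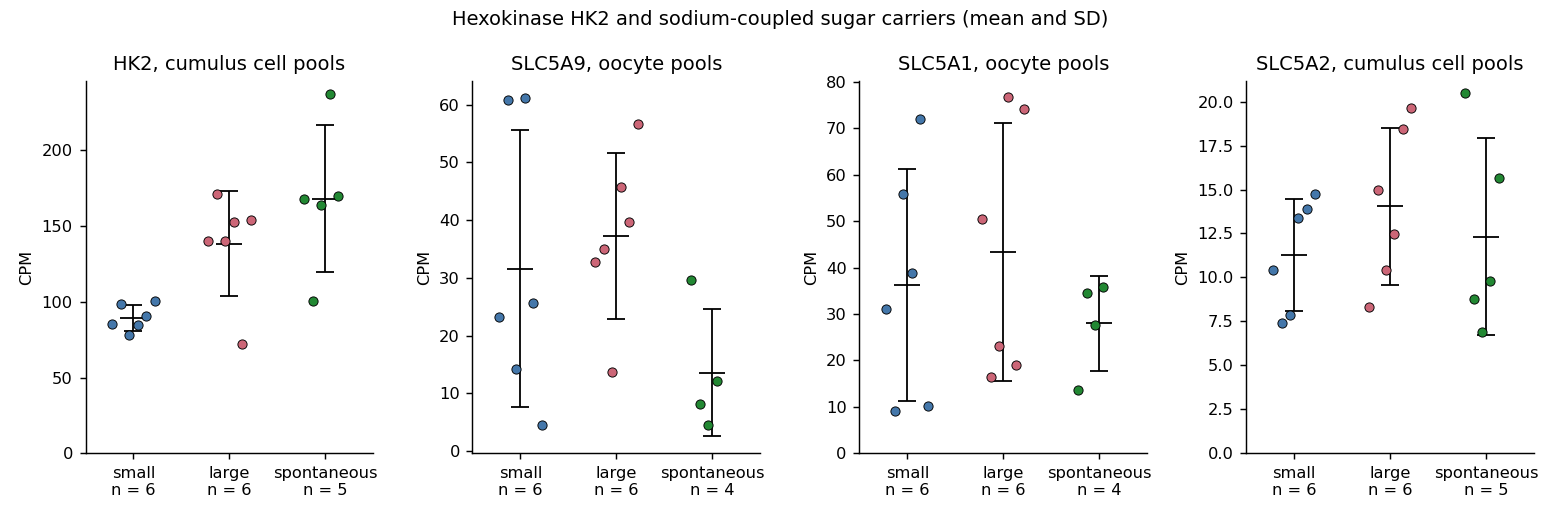
HK2 in CC, SLC5A9 and SLC5A1 in oocytes and SLC5A2 in CC, in CPM by pool and follicle classification, with 1 point per pool and bars for the mean and SD. All 5 spontaneous HK2 values lie above the small pools, and 3 of 4 spontaneous SLC5A9 values lie below the large pools.

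Among regulators of SLC2A1 or SLC2A3 level or surface display, HIF1A, the oxygen-regulated transcription factor that acts on SLC2A1, was at 5083 ± 1375 CPM in CC and 559 ± 132 CPM in oocytes. In CC all 10 tested regulators were positive from small to large (median 0.14) and from small to spontaneous (median 0.37), where 56.0% and 71.9% of all tested transcripts were. The list does not separate genes that raise these transporters from genes that lower them. None was called with limma, edgeR or DESeq2, with 0 and 3 at an unadjusted p under 0.05 in limma. Without mitochondrially encoded genes 7 of 10 were positive in each, where 41.2% and 49.5% of all tested transcripts were. ARNT, the partner of HIF1A in DNA binding, was at 0, 1.31 and 3.16 CPM in the lowest, median and highest small oocyte pools and at 11.0, 4.05, 15.1 and 8.36 CPM in the spontaneous pools, with no overlap. For 0.476% of tested transcripts the groups did not overlap in this direction. ARNT reached 5 CPM in 3 spontaneous, 2 large and 0 small pools, so it was retained only with the spontaneous pools, the group where it was high. Its p-values and lack of overlap follow that selection and are given as a description only.

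ARNT rose from small (1.37 ± 1.30 CPM) to spontaneous (9.62 ± 4.63) by 2.25 on the log2 scale (SE 0.76, nominal limma p 0.00589, adjusted p = 0.915, exact permutation p = 0.00476). The call was lost with a pseudocount of 0.1, with the replicate block, with edgeR, with DESeq2 and without any of small pools 2, 4 and 6 and spontaneous pools 1, 3 and 4. In the list of insulin signalling to SLC2A4 and its trafficking no gene was called with limma, edgeR or DESeq2, with 16 tested in oocytes and 17 in CC, and at most 1 in a comparison had an unadjusted p under 0.05 in limma. SORT1, which encodes the sorting receptor sortilin, came nearest, at 39.3 ± 9.58 CPM in small and 19.2 ± 7.97 CPM in large oocyte pools. Its log2 difference was -1.05, with a nominal limma p of 0.00839 (adjusted p = 0.997, exact permutation p = 0.00433), but 0.0241 without small pool 3, so it was not called. RAB10, a small GTPase of vesicle traffic, was at 1734 ± 179 CPM in oocytes, and PIK3R1, a regulatory subunit of phosphoinositide 3-kinase, was at 292 ± 78.1 CPM in CC. SLC2A4 itself was at or near 0 in both cell types.

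The retained transcripts most like each member were found by the Pearson correlation of log2(CPM + 1) over the pools of a cell type, given as a description, since all points share library depth and composition. For SLC2A1 over 17 CC pools the nearest was the zinc finger gene ZNF292, with r = 0.905 (Spearman 0.838). It was 0.862 within classifications and 0.832 without the 2 pools farthest from the median of SLC2A1. The next were VLDLR, a lipoprotein receptor (r = 0.840), EIF4EBP3, an inhibitor of translation initiation (0.823), HYOU1, a chaperone of the endoplasmic reticulum (0.817), and KMT2E (0.816). Within classifications VLDLR stood at 0.683, EIF4EBP3 at 0.642, HYOU1 at 0.695 and KMT2E at 0.660, so part of their likeness lay between the groups.

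For SLC2A3 over the same pools the nearest were DDIT4, a stress-induced inhibitor of mTORC1 signalling (r = 0.888, Spearman 0.755), ANP32A (0.869), ABHD18 (0.864), ERO1A, an oxidase of the endoplasmic reticulum (0.854), and SMC1A, a cohesin subunit (0.851). Within classifications DDIT4 was at 0.855. For SLC2A10 in CC the nearest was BTRC, a subunit of a ubiquitin ligase (r = 0.884, Spearman 0.860), followed by STXBP5 (0.790), AUTS2 (0.772), C16orf70 (0.768) and TLK1 (0.760). In oocytes the likeness to SLC2A1 was weaker. Over 16 pools DPYSL2 had r = 0.755 (Spearman 0.806), with 0.768 within classifications and 0.664 without the 2 farthest pools. TMEM33 had r = 0.742 (Spearman 0.429), which was 0.363 without the 2 farthest pools. PDRG1 (0.724), SDAD1 (0.718) and PTGS2, the prostaglandin synthase of the ovulatory follicle (0.718), followed. Without the 2 farthest pools they were at 0.339, 0.425 and 0.495.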

How the data were processed

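Per the labels and the study's methods, the authors amplified total RNA of each pool with the Ovation RNA-Seq System V2, sequenced PCR-free libraries, aligned reads with Hisat2 to the bovine genome UMD3.1 and counted them per Ensembl gene with featureCounts. The counting strand was not given in the sources used here. The authors deposited CPM, scaled to the reads on genes of each pool, in 1 table per cell type. Whole reads were recovered from the CPM steps (100% of values within 0.02 of a whole number), and every 2 pools of a group differed by more than counting error (a chi-square of at least 13.4 times its degrees of freedom).

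Each pair of classifications within a cell type was fitted with limma 3.58.1 (R 4.3.3), trended, on log2(CPM + 1), over the transcripts that reached 5 CPM in 4 oocyte or 5 CC pools. The unit being CPM, the count tests of the authors (edgeR, DESeq2) became alternatives, run on recovered reads with edgeR 4.0.16 and DESeq2 1.42.0. The threshold was a nominal, two-sided p of 0.01, and in oocyte comparisons with small pools a transcript also had to pass without small pool 3, as in the study's methods. Benjamini-Hochberg adjustment covered all tested transcripts. Mean CPM was compared by exact permutation of pools. The study's methods describe aspiration of the largest follicle of each cow, with CC pools taken from the same complexes as oocyte pools. Oocyte and CC pools are therefore not independent, and this link was not used in any test. The p-values measure the spread between pools within a cell type. Intervals and read limits cover counting or pool error only, and amplified reads are not independent molecules.

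Alternatives were edgeR, DESeq2, each pool left out, a block for the replicate number, 3 classifications in 1 fit, no filter, a pseudocount of 0.1, median-of-ratios scaling and CPM without the 13 mitochondrially encoded genes. Those for HK2, ARNT and SLC5A9 were added after seeing the data. Scripts were tested on simulated data. The 8 members, the pathway lists and the marker lists were chosen with earlier results of these data known. Genes named are all members, every list gene past the threshold, the highest of each list by CPM (not a ranking of levels, as CPM is not per length) and the 5 symbols most like SLC2A1 and each called member. SLC2A2, SORT1 and the markers HAS2, FSHR and CYP17A1 were named after their values were seen. SLC2A5, SLC2A7, SLC5A3, SLC5A4, G6PC2 and ASPSCR1 were not analysed here.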

Additional observations from a re-analysis of the deposited data

Results flagged for a closer look

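Of 43 groups of 4 to 6 pools with any read for a member, 13 held a pool whose gap to the nearest other pool exceeded Dixon's 95% limit. For normally distributed values chance alone gives about 1 in 20, but 7 of the 13 have reads in 1 pool and none in the others, which exceeds the limit whatever the count. In CC large pool 2 stood apart for SLC2A1 (405 CPM, the next pool at 229.6) and for SLC2A3 (627 CPM, the next at 169.6). In oocytes small pool 3 stood apart for SLC2A3 (54.7 CPM, the next at 16.7), spontaneous pool 3 for SLC2A8 (32.5 CPM, the next at 5.35) and small pool 2 for SLC2A10 (87.5 CPM, the next at 9.66). SLC2A4 in CC large pool 6 was at 2.03 CPM, from 9 reads, and SLC2A12 in CC spontaneous pool 4 at 1.27 CPM, from 7 reads. The other 6 rest on 1 read in a pool among pools without any. For SLC2A4 they are oocyte small pool 6 (0.0861 CPM), oocyte large pool 5 (0.0923 CPM) and CC spontaneous pool 5 (0.22 CPM). For SLC2A10 it is oocyte large pool 6 (0.0845 CPM), and for SLC2A12 they are CC small pool 5 (0.214 CPM) and CC large pool 3 (0.255 CPM).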

How the results depend on the processing

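Of the transporter counts, the 2 called in CC from small to large became 1 with edgeR and with DESeq2 (SLC2A10 lost) and 1 to 2 with a pool left out. The 2 called from small to spontaneous became 1 (SLC2A3 lost) with no filter, median-of-ratios scaling, no mitochondrially encoded genes, 3 classifications, edgeR and DESeq2, and 1 to 2 with a pool left out. From large to spontaneous the count of 0 became 1 without large pool 2 and was 0 to 1 over all pools left out. The oocyte counts were 0 under every alternative. With the replicate number as a block the CC count from small to spontaneous was 1, with SLC2A3 at 0.83, the same value as without small pool 6, which has no partner. Same-numbered pools did not deviate together (correlations of -0.19 to 0.22, and 0 or 1 pool most like its own number in each comparison). Within a cell type the numbers thus showed no pairing between classifications over all retained transcripts together. A shared batch in single transcripts was not tested. The block changed no other member's call. Among the list genes it ended the calls of HK2 from small to large, ARNT and SLC5A9.

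Reversals were in differences that were not called. With edgeR and DESeq2, SLC2A1 in oocytes was 0.0861 and 0.0865 from small to large and -0.0543 and -0.0464 from large to spontaneous, and SLC2A3 in CC was -0.0412 and -0.0394 from large to spontaneous. With a pool left out, SLC2A1 in oocytes was -0.31 to 0.30 from small to large, -0.0395 to 0.39 from small to spontaneous and -0.0827 to 0.53 from large to spontaneous. SLC2A3 in oocytes was -0.40 to 0.38 from small to large, and SLC2A8 was -0.35 to 0.73 from small to spontaneous. Of 168 log2 values of single members under other settings, 153 kept their direction and side of the threshold, 6 reversed and 9 lost the call. Of 232 with a pool left out, 205 kept both, 13 reversed, 13 lost the call and 1 gained it.

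Over all transcripts, the calls in oocytes were 66, 78 and 95, with 113, 121 and 181 by DESeq2, and the second was 42 with the block. With a pool left out they were 47 to 93, 49 (without spontaneous pool 3) to 130 (without small pool 3) and 75 to 145 (without spontaneous pool 2). In CC from small to large they were 79 (67 higher and 12 lower) and 137 with 3 classifications, with 28 higher and 39 lower without mitochondrially encoded genes and 44 and 26 with median-of-ratios scaling. From small to spontaneous they were 231 (221 higher and 10 lower) and 126 (79 and 47) with median-of-ratios scaling, 127 (69 and 58) without mitochondrially encoded genes, 128 (73 and 55) with edgeR and 108 higher and 109 lower with DESeq2. From large to spontaneous they were 161 (141 higher and 20 lower), 118 (62 and 56) with median-of-ratios scaling, 124 (85 and 39) without mitochondrially encoded genes, 127 (67 and 60) with edgeR and 199 (92 and 107) with DESeq2. With a pool left out the CC counts were 52 (without small pool 5) to 113, 141 (without spontaneous pool 5) to 313 and 88 (without spontaneous pool 4, and 99 without spontaneous pool 5) to 232. The cause was not tested.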
